A study of Homo sapiens with 4 samples.

Results

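The nuclear genes of the mitochondrial respiratory chain and of ATP synthase were followed in Huh7 cells kept for 4 days in hydrogen peroxide (H2O2). Members were the genes with a RefSeq mRNA model (identifier starting NM_) whose symbol starts with NDUFA, NDUFB, NDUFC, NDUFS, NDUFV, SDHA to SDHD, UQCR, COX4I, COX5 to COX8 or ATP5, with CYC1 added. This name rule found 99 of the 42067 gene names listed, and each gene was read from its model with the most reads. By role, 76 members are subunits: 37 of complex I, 4 of complex II, 9 of complex III, 11 of complex IV and 15 of complex V. The other members are 10 assembly factors, 7 tissue-type or hypoxia-type paralogues of complex IV subunits, the supercomplex factor COX7A2L, the coupling factor ATP5S, the retrocopies UQCRHL and ATP5L2, and the read-through genes NDUFC2-KCTD14 and ATP5J2-PTCD1. The subunits encoded by mitochondrial DNA could not be followed, because 0 of the transcript models listed lie on the mitochondrial chromosome.

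Huh7 is an established human hepatocellular carcinoma line. One group received 300 µM H2O2 in medium renewed daily for 4 days, and the other was mock-treated over the same 4 days with the same daily renewal. Each group had 2 libraries, which the titles mark H and Q, made from total RNA with a TruSeq RNA kit. What the letters stand for is not given in the sources used here, nor whether the libraries came from separate cultures, so the p-values measure only the spread between these libraries.

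The respiratory chain passes electrons from NADH (complex I) or succinate (complex II) through ubiquinone to complex III, on to cytochrome c, and then to oxygen at complex IV. Complexes I, III and IV pump protons out of the mitochondrial matrix, and complex V, the ATP synthase, lets them back in to make ATP. The liver is rich in mitochondria, and complexes I and III are textbook sites where electrons leak to oxygen and give superoxide and then H2O2. Assembly factors help to build the complexes and are absent from the finished enzymes.

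The alignment summaries gave 83462944 and 86492977 mapped mates in H2O2 H and Q, against 78126878 and 88409567 in mock H and Q. Members took 1.333% and 1.182% of the counted reads in the H2O2 libraries, against 1.302% and 1.044% in the mock libraries. Levels are CPM, the read count over the TMM-scaled library size, and fold changes are log2 values of H2O2 over mock with their standard error (SE). The 10 hepatocyte and hepatoma markers summed to 20282 and 11509 CPM in H2O2 H and Q, against 17431 and 5615 CPM in mock H and Q. Summed markers of fibroblasts, endothelium, muscle and testis lay at or below 26.0 CPM in every library, and those of blood at or below 97.7 CPM. In bulk RNA, fewer cells of a type and less RNA per cell cannot be told apart.

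No member passed an adjusted p of 0.05 in edgeR's quasi-likelihood test, and neither did any of the 27514 genes tested (a background of 0.0%). At an unadjusted p under 0.05 edgeR gave 1898 genes, of which 856 were higher in H2O2 cells (3.11%) and 1042 lower (3.79%), and DESeq2 passed 138 of 26448 genes at an adjusted 0.05 (0.522%), none of them a member. Of the 95 members with enough reads to test, 3 had an unadjusted p under 0.05 and a higher level in H2O2 cells, and 1 had it with a lower level. The lowest adjusted p of a member was 0.719, a value that NDUFAF2 shared with several others.

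Small positive fold changes prevailed among the members. The fitted fold change was above 0 for 80 of the 95 members and 64 of the 76 subunits (84.2% in both cases), against 47.2% of all genes tested and 52.7% of those with an mRNA model. The median over the 76 subunits was 0.17, against -0.03 over all genes. Both H2O2 values lay above both mock values in 12 of 95 members (12.6%), against 18.1% of all genes and 21.1% of those with an mRNA model. Both lay below both mock values in 1 member (1.05%), against 21.3% of all genes and 17.7% of those with an mRNA model. For the 76 subunits alone these counts were 5 (6.58%) and 0 (0.0%). The subunits without overlap were NDUFA1, NDUFS1, NDUFV3, SDHD and UQCRC2, and the groups overlapped in all others tested.

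**Figure D1:**
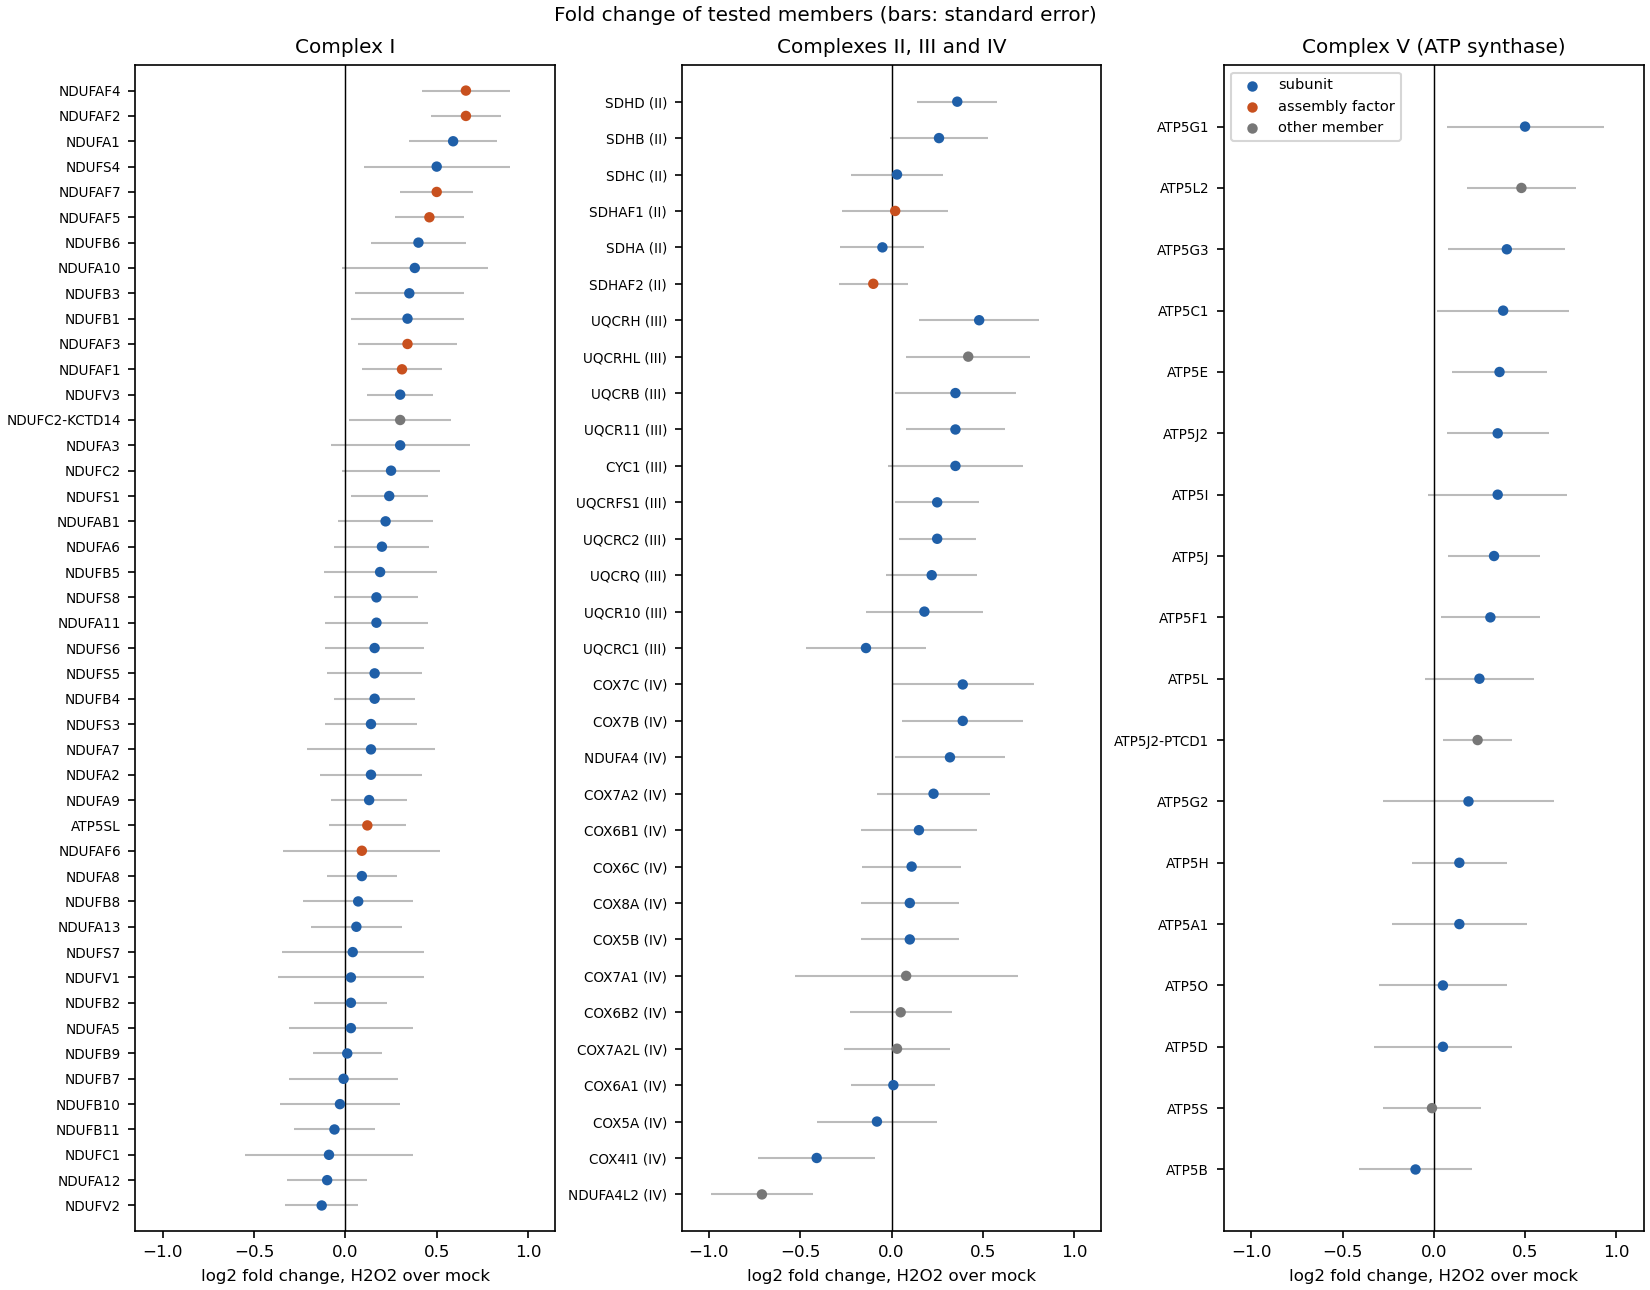
Log2 fold change (H2O2 over mock, x axis) of the tested members reported by name, with the standard error as a bar and 1 row per gene. Most points lie to the right of 0 and most bars cross it, with NDUFAF2 and NDUFAF4 at 0.66 and NDUFA4L2 at -0.71.

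By role, the groups were most often apart among the assembly factors of complex I. All 8 had a fitted fold change above 0 (against 47.2% of all genes tested), with a median of 0.40 and a range of 0.09 to 0.66. All 8 were also higher in H2O2 cells within letter H and within letter Q, against 8859 of all 27514 genes. In 5 of the 8 both H2O2 values lay above both mock values (62.5%, against 18.1% of all genes). Leaving out any 1 library kept the median between 0.39 and 0.59.

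NDUFAF2, a chaperone related in sequence to subunit NDUFA12 that acts late in complex I assembly, had 47.2 and 46.2 CPM in H2O2 H and Q, against 26.9 and 32.3 CPM in mock H and Q. The H2O2 libraries were close to each other and both above the mock libraries. The fold change was 0.66 (SE 0.19, edgeR adjusted p = 0.719). NDUFAF4, which acts early with NDUFAF3 on the part that binds ubiquinone, had 30.7 and 22.1 CPM in H2O2 H and Q, against 16.3 and 17.2 CPM in mock H and Q. Here H2O2 H stood highest and the groups did not overlap. The fold change was 0.66 (SE 0.24, edgeR adjusted p = 0.719), and 0.41 without H2O2 H.

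NDUFAF7, an arginine methyltransferase needed for complex I assembly, had 25.3 and 22.5 CPM in H2O2 H and Q, against 17.1 and 16.6 CPM in mock H and Q. The 2 groups were apart and each was tight. The fold change was 0.50 (SE 0.20, edgeR adjusted p = 0.719). Its exons overlap those of CEBPZ and PRKD3 on the other strand, the use of strand in counting is not given in the sources used here, and CEBPZ had 85.5 and 90.4 CPM in H2O2 H and Q, against 58.9 and 68.0 CPM in mock H and Q. Reads of NDUFAF7 and of these neighbours could not be told apart there. NDUFAF5, which hydroxylates an arginine of the core subunit NDUFS7, had 31.8 and 28.0 CPM in H2O2 H and Q, against 21.3 and 22.1 CPM in mock H and Q. The groups did not overlap, and the fold change was 0.46 (SE 0.19, edgeR adjusted p = 0.719).

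NDUFAF1, a factor of the early membrane arm, had 17.9 and 14.3 CPM in H2O2 H and Q, against 12.9 and 13.0 CPM in mock H and Q, a fold change of 0.31 (SE 0.22). NDUFAF3 had 77.5 and 49.9 CPM in H2O2 H and Q, against 54.6 and 46.3 CPM in mock H and Q, a fold change of 0.34 (SE 0.27). NDUFAF1 was the fifth gene without overlap, by a narrow margin, and in NDUFAF3 H2O2 Q lay below mock H. NDUFAF6 had 13.8 and 23.6 CPM in H2O2 H and Q, against 11.9 and 23.2 CPM in mock H and Q, so its letters differed far more than its groups (0.09, SE 0.43). ATP5SL, now named DMAC2 and a factor of the distal membrane arm, carries an ATP synthase symbol but belongs here by role. It had 49.5 and 40.6 CPM in H2O2 H and Q, against 44.4 and 38.4 CPM in mock H and Q (0.12, SE 0.21).

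**Figure D2:**
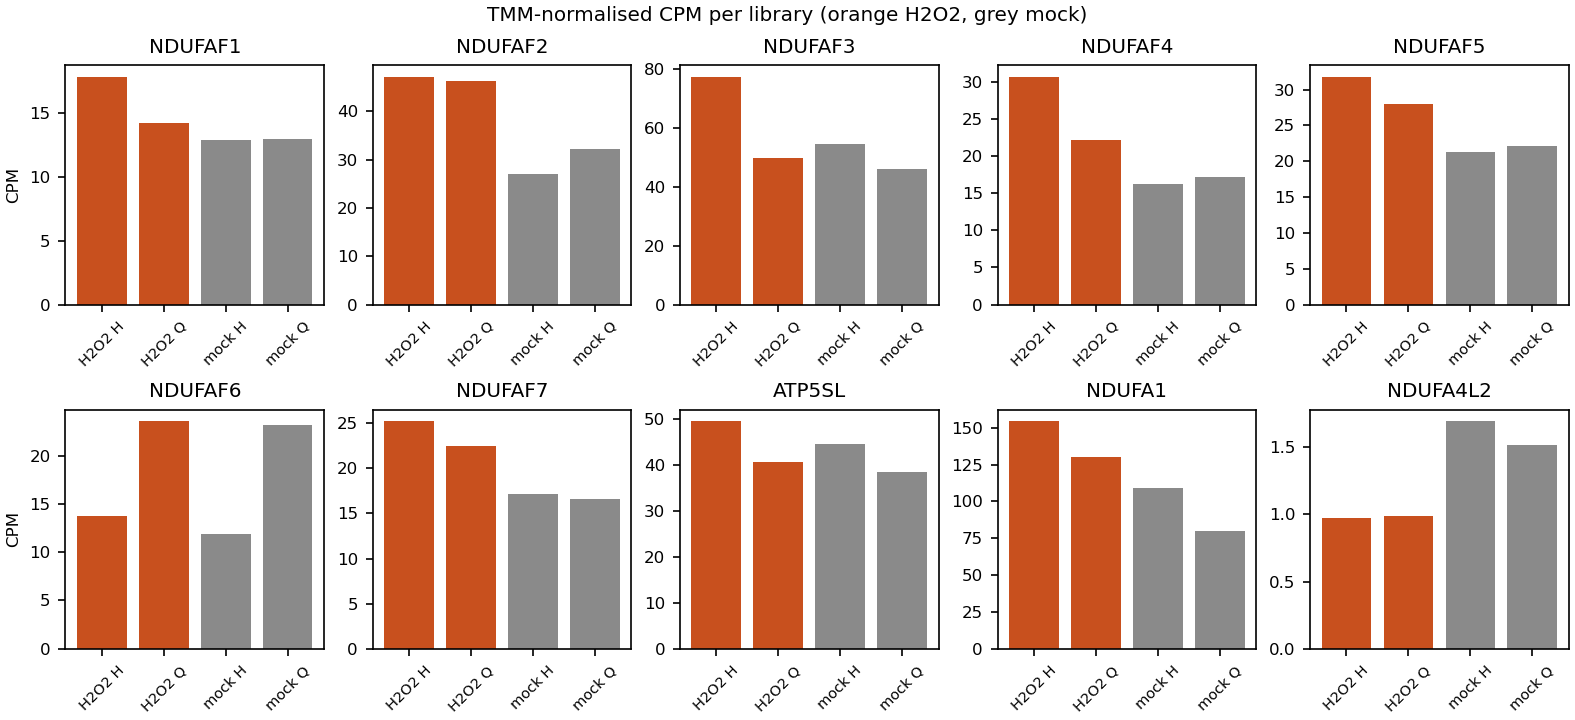
TMM-normalised CPM (y axis, from 0) of the 8 complex I assembly factors, NDUFA1 and NDUFA4L2 in each of the 4 libraries, H2O2 in orange and mock in grey, 1 bar per library. NDUFAF2 stands at 47.2 and 46.2 CPM in the H2O2 libraries, against 26.9 and 32.3 CPM in the mock libraries.

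The 250 bases before the transcription start are shown for the 5 members with the smallest unadjusted p among those whose groups did not overlap and that have an entry among the promoters used, because these are the members whose levels separated the groups. The sequences are from RefSeq, build GRCh38.p14, and run 5′ to 3′ along the gene's own strand. Capitals mark a match, on either strand, to an ETS-type element (CCGGAAG) or a hypoxia response core (ACGTG).
NDUFAF2, chr5:60944955-60945204, plus strand: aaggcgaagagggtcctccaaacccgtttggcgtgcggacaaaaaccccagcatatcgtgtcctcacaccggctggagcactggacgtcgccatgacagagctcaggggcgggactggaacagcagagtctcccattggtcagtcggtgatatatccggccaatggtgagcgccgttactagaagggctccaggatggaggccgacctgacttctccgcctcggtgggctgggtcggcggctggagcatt
NDUFAF4, chr6:96897892-96898141, minus strand: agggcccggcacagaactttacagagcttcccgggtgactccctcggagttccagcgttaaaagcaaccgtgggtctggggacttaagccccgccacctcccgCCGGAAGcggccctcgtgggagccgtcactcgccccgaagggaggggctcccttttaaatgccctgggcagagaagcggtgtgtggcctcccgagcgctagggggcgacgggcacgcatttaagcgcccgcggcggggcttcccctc
NDUFAF7, chr2:37231408-37231657, plus strand: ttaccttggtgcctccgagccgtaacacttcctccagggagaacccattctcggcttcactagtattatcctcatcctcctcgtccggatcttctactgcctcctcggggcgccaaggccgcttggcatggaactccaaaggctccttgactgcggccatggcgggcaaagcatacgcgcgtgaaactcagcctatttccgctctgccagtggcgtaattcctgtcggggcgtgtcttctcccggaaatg
NDUFA1, chrX:119871582-119871831, plus strand: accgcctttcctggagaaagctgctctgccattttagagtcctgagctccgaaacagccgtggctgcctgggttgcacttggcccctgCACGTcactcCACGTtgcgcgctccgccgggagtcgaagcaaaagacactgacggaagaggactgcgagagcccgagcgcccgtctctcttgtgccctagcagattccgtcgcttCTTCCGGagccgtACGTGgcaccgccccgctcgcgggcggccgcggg
NDUFA4L2, chr12:57240763-57241012, minus strand: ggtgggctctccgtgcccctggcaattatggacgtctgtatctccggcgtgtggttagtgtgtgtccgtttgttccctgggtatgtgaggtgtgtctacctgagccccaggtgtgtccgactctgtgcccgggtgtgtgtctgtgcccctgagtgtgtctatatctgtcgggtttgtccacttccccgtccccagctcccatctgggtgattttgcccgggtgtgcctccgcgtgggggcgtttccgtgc
NDUFAF4 holds 1 ETS-type match, which begins 147 bases before the start. NDUFA1 holds 1 ETS-type match, 47 bases before the start, and 3 hypoxia cores, at 162, 152 and 34 bases before it. The windows of NDUFAF2, NDUFAF7 and NDUFA4L2 hold neither element in these letters, and a match is a description, not a site or a cause.

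Among all promoters, 4 elements were counted in windows of 250 bases before to 50 after the start, on both strands. A promoter was found for 79 of the 99 members, of which 63 are subunits and 9 assembly factors. The ETS-type element CCGGAAG was present in 19 of 63 subunit promoters (30.2%), against 10.3% of 35116 promoters of all genes. The YY1-type element AAGATGG was present in 16 of 63 (25.4%), against 5.84% of all. The NRF1-type palindrome GCGCATGCGC was present in 4 of 63 (6.35%), those of ATP5C1, NDUFA8, NDUFB4 and SDHD, against 1.24% of all. The hypoxia core ACGTG was present in 17 of 63 (27.0%), against 21.4% of all. Of the 9 assembly factor promoters, 2 held the ETS-type element (22.2%), 0 the YY1-type, 1 the NRF1-type (11.1%) and 2 the hypoxia core (22.2%). Shares among promoters of genes with an mRNA model alone were not computed. NRF1, the ETS factor GABP and YY1 are textbook regulators of nuclear respiratory genes.

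The 37 subunits of complex I had a median fold change of 0.14, with 30 above 0 and 7 below. The medians of its parts were 0.15 for the 8 genes of the NADH-oxidising N module, 0.14 for the 8 of the ubiquinone-binding Q module and 0.16 for the 20 of the membrane arm. Both H2O2 values were above both mock values in 3 genes, NDUFA1, NDUFS1 and NDUFV3 (8.11%). That share was below the 18.1% of all genes and the 21.1% of those with an mRNA model.

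NDUFA1, a small membrane subunit encoded on the X chromosome, had 155 and 130.1 CPM in H2O2 H and Q, against 109 and 80.1 CPM in mock H and Q. All 4 libraries were ordered by group and, within a group, H was higher than Q. The fold change of 0.59 (SE 0.24, edgeR adjusted p = 0.719) was the highest of any subunit, and it was 0.38 without mock Q. Its exons overlap RNF113A on the other strand, whose level was 23.7 and 26.0 CPM in H2O2 H and Q, against 21.6 and 17.1 CPM in mock H and Q. NDUFS1, the core subunit with several iron-sulphur clusters, had 340.3 and 289.6 CPM in H2O2 H and Q, against 283 and 251 CPM in mock H and Q (0.24, SE 0.21, edgeR adjusted p = 0.814). Both H2O2 libraries stood above both mock libraries, with H2O2 Q close to mock H. NDUFV3, a small subunit of the N module, had 41.7 and 39.5 CPM in H2O2 H and Q, against 34.7 and 31.4 CPM in mock H and Q (0.30, SE 0.18).

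NDUFV1, which binds NADH and the flavin, had 519 and 346 CPM in H2O2 H and Q, against 559 and 289.7 CPM in mock H and Q. The letters were far apart within each group and the fold change was 0.03 (SE 0.40). NDUFS4, an accessory subunit mutated in Leigh syndrome, had 97.9 and 62.5 CPM in H2O2 H and Q, against 74.8 and 38.4 CPM in mock H and Q (0.50, SE 0.40). In NDUFS4, as in NDUFV1, the groups overlapped. NDUFB6, of the membrane arm, had 57.2 and 44.4 CPM in H2O2 H and Q, against 44.8 and 32.0 CPM in mock H and Q (0.40, SE 0.26), with H2O2 Q just under mock H. With 1 library left out, NDUFS4 ranged from 0.10 without mock Q to 1.07 without mock H, and NDUFB6 from 0.18 to 0.68 without the same libraries.

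The lowest fold changes of complex I were small. NDUFV2, which carries an iron-sulphur cluster beside NDUFV1, had 198 and 197 CPM in H2O2 H and Q, against 234 and 197 CPM in mock H and Q (-0.13, SE 0.20). NDUFA12 had 44.0 and 37.2 CPM in H2O2 H and Q, against 48.6 and 38.5 CPM in mock H and Q (-0.10, SE 0.22). NDUFC1 had 35.9 and 26.7 CPM in H2O2 H and Q, against 47.4 and 19.2 CPM in mock H and Q (-0.09, SE 0.46). In NDUFC1 the mock libraries enclosed the H2O2 libraries.

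Complex II, succinate dehydrogenase, also works in the tricarboxylic acid cycle. Its 4 subunits had a median fold change of 0.14. SDHD, a membrane anchor, had 93.6 and 73.4 CPM in H2O2 H and Q, against 70.6 and 59.6 CPM in mock H and Q (0.36, SE 0.22, edgeR adjusted p = 0.759). It was the 1 subunit of 4 whose groups did not overlap (25.0%, against 18.1% of all genes with H2O2 higher). Its exons overlap TIMM8B, which had 41.0 and 36.4 CPM in H2O2 H and Q, against 32.7 and 31.8 CPM in mock H and Q. The flavoprotein SDHA had 198 and 162 CPM in H2O2 H and Q, against 206 and 167 CPM in mock H and Q (-0.05, SE 0.23). The iron-sulphur subunit SDHB had 125 and 98.5 CPM in H2O2 H and Q, against 111 and 75.6 CPM in mock H and Q (0.26, SE 0.27). The second anchor, SDHC, had 117 and 89.3 CPM in H2O2 H and Q, against 116 and 85.7 CPM in mock H and Q (0.03, SE 0.25). In SDHA, SDHB and SDHC the groups overlapped.

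The complex II assembly factors did not share the separation seen in those of complex I, although this difference was not tested. SDHAF2, needed to attach the flavin to SDHA, had 47.7 and 54.5 CPM in H2O2 H and Q, against 52.8 and 56.6 CPM in mock H and Q (-0.10, SE 0.19). SDHAF1, needed for the clusters of SDHB, had 16.1 and 12.4 CPM in H2O2 H and Q, against 16.8 and 11.3 CPM in mock H and Q (0.02, SE 0.29).

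In complex III, which passes electrons from ubiquinol to cytochrome c, 8 of 9 subunits had a fold change above 0 and the median was 0.25. The 5 small subunits had a median of 0.35 and the 4 core subunits one of 0.25. UQCRH, the hinge protein that helps cytochrome c to dock, had 267 and 185 CPM in H2O2 H and Q, against 199.9 and 123 CPM in mock H and Q (0.48, SE 0.33, edgeR adjusted p = 0.776). H2O2 Q lay below mock H, so the groups overlapped, and the fold change ranged from 0.17 without mock Q to 0.88 without mock H. CYC1, the cytochrome c1 subunit, had 211 and 127 CPM in H2O2 H and Q, against 166 and 98.0 CPM in mock H and Q (0.35, SE 0.37). UQCRFS1, the Rieske iron-sulphur protein, had 137 and 111 CPM in H2O2 H and Q, against 119 and 90.6 CPM in mock H and Q (0.25, SE 0.23).

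UQCRC2, a core scaffold subunit, was the 1 gene of complex III without overlap (11.1%, against 18.1% of all genes with H2O2 higher). It had 222 and 192 CPM in H2O2 H and Q, against 188 and 159 CPM in mock H and Q (0.25, SE 0.21). Its partner UQCRC1 had 328 and 248 CPM in H2O2 H and Q, against 398 and 237 CPM in mock H and Q (-0.14, SE 0.33). UQCRC1 was thus the 1 subunit of complex III with a fold change below 0, and in it mock H stood highest. UQCRB, a small subunit near the ubiquinone sites, had 250.3 and 163 CPM in H2O2 H and Q, against 197 and 127 CPM in mock H and Q (0.35, SE 0.33).

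Complex IV, cytochrome c oxidase, had the lowest median of the 5 complexes, 0.11, with 9 of 11 subunits above 0. The groups overlapped in every subunit (0.0% apart, against 18.1% of all genes with H2O2 higher and 21.3% with H2O2 lower). COX4I1, a regulatory subunit, had 251 and 194 CPM in H2O2 H and Q, against 368 and 223 CPM in mock H and Q. Mock H stood well above the other 3 libraries, and the fold change of -0.41 (SE 0.32, edgeR adjusted p = 0.792) was the lowest of any subunit. COX5A had 262 and 197 CPM in H2O2 H and Q, against 307 and 177 CPM in mock H and Q (-0.08, SE 0.33). COX5B, which binds zinc, had 198 and 173 CPM in H2O2 H and Q, against 208 and 138 CPM in mock H and Q (0.10, SE 0.27). COX5A and COX5B showed the same order of libraries, with mock H highest and mock Q lowest.

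The highest fold changes of complex IV were those of small subunits. COX7C had 369 and 232 CPM in H2O2 H and Q, against 297 and 160.0 CPM in mock H and Q (0.39, SE 0.39). COX7B, encoded on the X chromosome, had 178 and 115 CPM in H2O2 H and Q, against 136 and 87.1 CPM in mock H and Q (0.39, SE 0.33). NDUFA4, first assigned to complex I and now counted with complex IV, had 257 and 177 CPM in H2O2 H and Q, against 205 and 141 CPM in mock H and Q (0.32, SE 0.30). In all 3 genes H2O2 H was the highest library and H2O2 Q lay below mock H. These fold changes rested on single libraries: with 1 library left out they ranged from 0.01 to 0.92 in COX7C, 0.04 to 0.76 in COX7B and 0.03 to 0.63 in NDUFA4, lowest without mock Q or H2O2 H and highest without mock H.

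NDUFA4L2, a paralogue of NDUFA4 known as a target of hypoxia-inducible factor (HIF), was the 1 member with both H2O2 values below both mock values in CPM. It had 0.969 and 0.987 CPM in H2O2 H and Q, against 1.69 and 1.51 CPM in mock H and Q. The fold change was -0.71 (SE 0.28, edgeR adjusted p = 0.719), and it lay between -0.80 and -0.62 when any 1 library was left out. The deposited FPKM of the same model overlapped, at 7.17 and 12.6 in H2O2 H and Q, against 11.6 and 12.9 in mock H and Q, and limma on log2(FPKM + 1) gave -0.33 (SE 0.41). The separation of NDUFA4L2 thus held in the counts and not in the FPKM. Per 1000 NDUFA4 reads there were 3.78 and 5.56 NDUFA4L2 reads in H2O2 H and Q, against 8.24 and 10.7 in mock H and Q. Those ratios also did not overlap. The exons of NDUFA4L2 overlap SHMT2 on the other strand, an abundant gene with 334 and 279 CPM in H2O2 H and Q, against 394 and 373 CPM in mock H and Q, and the part of SHMT2 reads in the NDUFA4L2 counts was not tested.

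The other paralogues, which are muscle, lung or testis forms in normal tissue, were scarce. COX6B2, the testis form of COX6B1, had 1.36 and 1.29 CPM in H2O2 H and Q, against 1.16 and 1.40 CPM in mock H and Q (0.05, SE 0.28). COX7A1, the muscle form of COX7A2, had 9 and 13 reads in H2O2 H and Q, against 11 and 9 reads in mock H and Q. COX4I2, COX6A2, COX7B2 and COX8C had at most 6 reads in any library and were too low to test. COX7A2L, which helps complexes III and IV to join, had 74.9 and 57.1 CPM in H2O2 H and Q, against 78.9 and 50.1 CPM in mock H and Q (0.03, SE 0.29).

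Complex V had the highest median of the 5 complexes, 0.31, with 14 of 15 subunits above 0. No subunit had groups without overlap (0.0%, against 18.1% of all genes with H2O2 higher and 21.3% with H2O2 lower). By part, the median was 0.40 for the 3 genes of the c ring, 0.31 for the 7 of the stalk and membrane part and 0.14 for the 5 of the catalytic F1 head. The c ring turns as protons pass, and its 3 genes encode the same mature protein. ATP5G1 had 214 and 122 CPM in H2O2 H and Q, against 157 and 81.1 CPM in mock H and Q (0.50, SE 0.43). ATP5G3 had 498 and 337 CPM in H2O2 H and Q, against 379 and 254 CPM in mock H and Q (0.40, SE 0.32). ATP5G2 had 263 and 175 CPM in H2O2 H and Q, against 273 and 112 CPM in mock H and Q (0.19, SE 0.47). In each of the 3 the letters were further apart than the group means. Without H2O2 H the fold change of ATP5G1 was 0.03, and without mock H it was 1.06.

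In the F1 head, the catalytic beta subunit ATP5B had 1225 and 903 CPM in H2O2 H and Q, against 1345 and 932 CPM in mock H and Q (-0.10, SE 0.31), and it was the 1 complex V subunit with a fold change below 0. The alpha subunit ATP5A1 had 723 and 499.9 CPM in H2O2 H and Q, against 713 and 395 CPM in mock H and Q (0.14, SE 0.37). The gamma subunit ATP5C1, the central shaft, had 443 and 299.7 CPM in H2O2 H and Q, against 361 and 211 CPM in mock H and Q (0.38, SE 0.36, edgeR adjusted p = 0.821). H2O2 H was the highest library in ATP5A1 and ATP5C1, and mock H in ATP5B. ATP5J2-PTCD1 and ATP5L2, a read-through and a retrocopy that share sequence with other members, were the remaining members with both H2O2 values above both mock values (0.24, SE 0.19, and 0.48, SE 0.30).

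The library letter separated the subunits more than the treatment did. Both H libraries lay above both Q libraries in 69 of 76 subunits (90.8%), against 21.8% of all genes and 24.9% of genes with an mRNA model. H2O2 Q was below H2O2 H in 74 of 76 subunits, with NDUFB2 and NDUFB9 as exceptions, against 48.4% of all genes and 52.7% of genes with an mRNA model. Mock Q was below mock H in 76 of 76, against 47.6% and 47.9%. The median Q minus H difference was -0.40 in the H2O2 libraries and -0.58 in the mock libraries, against 0.02 and 0.03 over all genes. These letter comparisons used TMM scaling alone, with factors of 0.903 and 0.933 in H and 1.06 and 1.12 in Q, and a lower factor gives a higher CPM. As a share of counted reads, without that scaling, members took 1.333% and 1.182% in H2O2 H and Q, against 1.302% and 1.044% in mock H and Q. Summed over the 76 subunits, the levels were 14006 and 10535 CPM in H2O2 H and Q, against 13337 and 8781 CPM in mock H and Q. The summed hepatocyte markers had the same order of libraries, and their part in the subunits' levels was not tested.

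**Figure D3:**
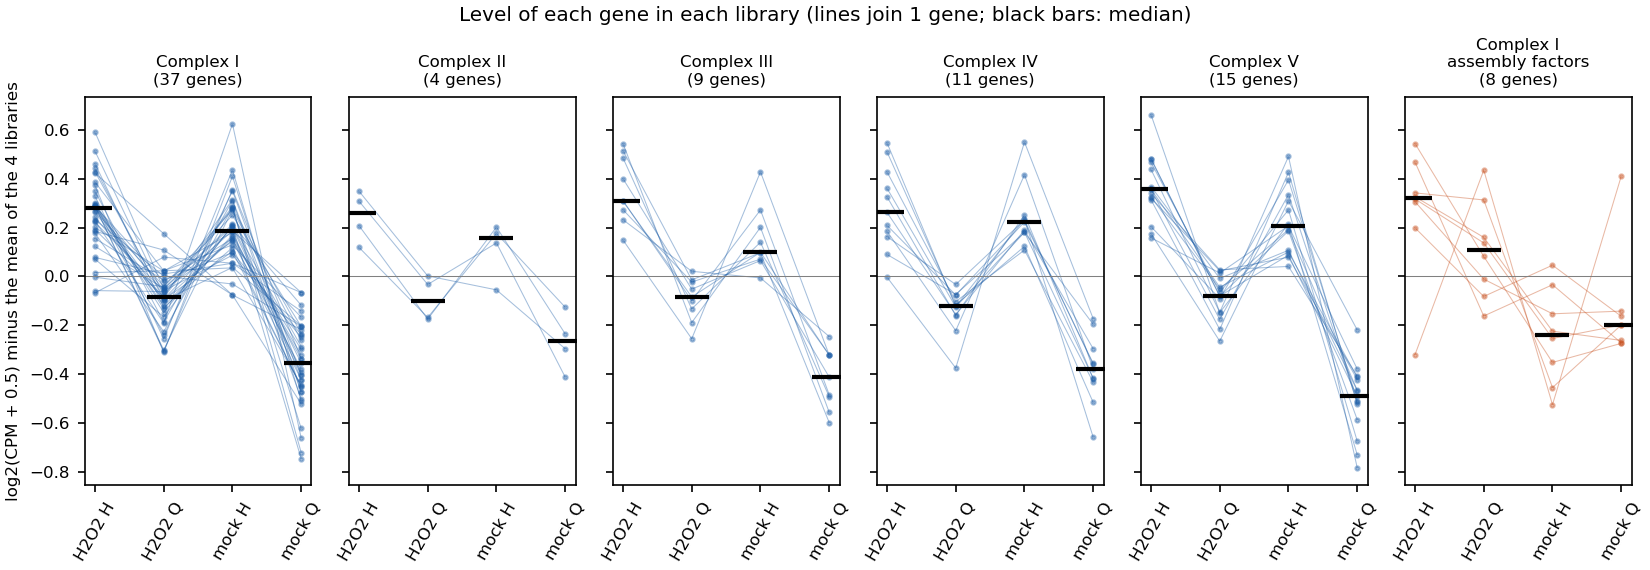
Level of each gene in each library, as log2(CPM + 0.5) minus the mean of the 4 libraries (y axis), 1 line per gene, with H2O2 libraries left of mock libraries and black bars for medians. Among subunits the 2 H libraries are high and the 2 Q libraries low, with mock Q lowest.

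Within a letter, the median ratio of H2O2 to mock over the 76 subunits was 0.09 for H and 0.30 for Q on the log2 scale. In 49 subunits the H2O2 library was higher within both letters, against 8859 of all 27514 genes tested. In 4 subunits the H2O2 library was lower within both, against 9369 of all genes. These 4 were ATP5B, COX4I1, NDUFA12 and SDHA. The complexes kept the same order of letters, with medians of 0.06 and 0.22 for complex I, 0.09 and 0.18 for II, 0.24 and 0.36 for III, 0.07 and 0.28 for IV, and 0.20 and 0.42 for V in H and Q. The 8 complex I assembly factors ran the other way, with medians of 0.53 in H and 0.24 in Q. Their Q minus H difference was -0.23 in the H2O2 libraries and 0.03 in the mock libraries. Both H lay above both Q in 2 of 8 (25.0%, against 21.8% of all genes and 24.9% of those with an mRNA model).

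Without mock Q, the lowest library, the medians became -0.07 for complex I, -0.09 for II, 0.06 for III, -0.15 for IV and -0.05 for V. Without H2O2 H, the highest library, they became -0.02, -0.05, 0.01, -0.04 and 0.06 in the same order. Without mock H they lay between 0.38 and 0.63. The direction of the median in complexes I, II, IV and V thus rested on single libraries, whereas in the complex I assembly factors no library left out changed it.

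**Figure D4:**
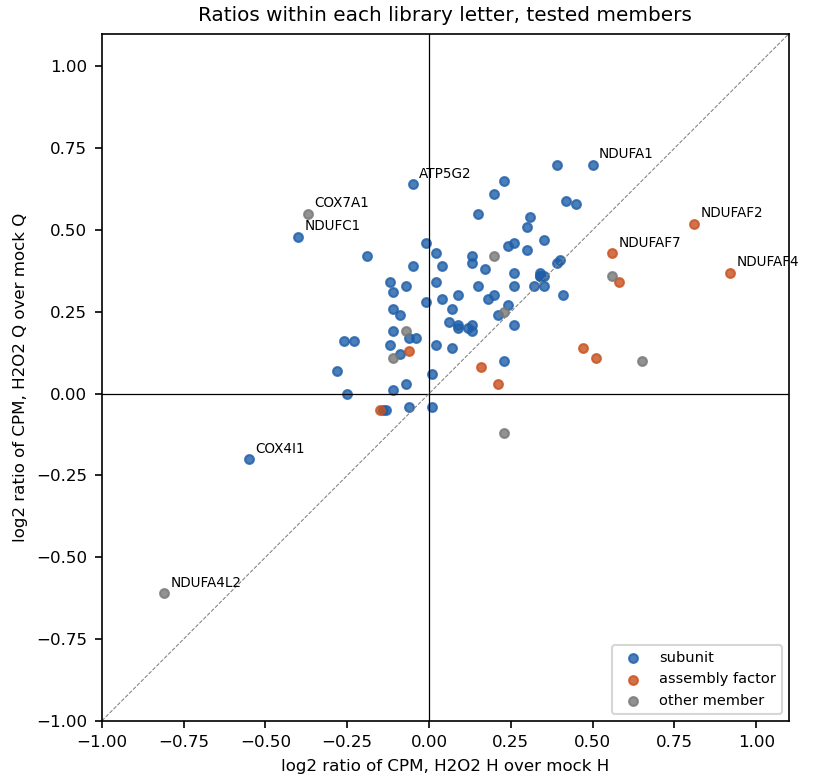
Log2 ratio of H2O2 to mock CPM within letter H (x axis) and within letter Q (y axis) for each tested member, 1 point per gene. Of the 76 subunits, 49 lie above 0 on both axes, as do all 8 complex I assembly factors. Of all 27514 genes tested, 8859 were higher within both letters.

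The rest of the pathway was followed through lists of genes outside the name rule. The longest list held 40 tested genes, mostly assembly factors of complexes I, III, IV and V, with none of complex II. It also held the ATP synthase proteins USMG5 and C14orf2, the inhibitor ATPIF1, and LRPPRC and TACO1, which act on mitochondrial mRNA and its translation. Of these 40 genes, 30 had a fold change above 0, with a median of 0.22. In 17, both H2O2 values lay above both mock values (42.5%, against 18.1% of all genes and 21.1% of those with an mRNA model). In 1 they lay below (2.5%, against 21.3% and 17.7%). SCO1, a copper chaperone of complex IV, had 55.0 and 54.3 CPM in H2O2 H and Q, against 35.4 and 43.0 CPM in mock H and Q (0.48, SE 0.20). LYRM7, which matures the Rieske protein, had 32.8 and 22.9 CPM in H2O2 H and Q, against 20.9 and 18.6 CPM in mock H and Q (0.49, SE 0.25). Both had non-overlapping groups, and their edgeR adjusted p was 0.719 and 0.729.

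Of the 17 genes of mitochondrial transcription and biogenesis, 17 had a fold change above 0, against 47.2% of all genes and 52.7% of those with an mRNA model. The median was 0.19 and the range 0.03 to 0.83, and 12 were higher in H2O2 cells within both letters, against 8859 of all 27514 genes. In 7 the groups did not overlap and H2O2 was higher (41.2%, against 18.1% of all genes and 21.1% of those with an mRNA model). TFAM, which packages mitochondrial DNA and starts its transcription, had 100.4 and 109 CPM in H2O2 H and Q, against 68.8 and 84.8 CPM in mock H and Q (0.45, SE 0.20, edgeR adjusted p = 0.725). The coactivator PPARGC1A had 2.43 and 3.94 CPM in H2O2 H and Q, against 1.60 and 1.99 CPM in mock H and Q (0.83, SE 0.34). Fold changes were smaller in NRF1 (0.11, SE 0.27), YY1 (0.12, SE 0.18) and GABPA, a subunit of GABP (0.19, SE 0.19). Among these 17 genes the median Q minus H difference was 0.01 in the H2O2 libraries and 0.11 in the mock libraries.

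Of 19 genes listed under electron carriers and ubiquinone synthesis, 14 were above 0, with a median of 0.17, and 3 had non-overlapping groups with H2O2 higher. That share of 15.8% was below the 18.1% of all genes and the 21.1% of those with an mRNA model. CYCS, cytochrome c itself, had 229 and 215 CPM in H2O2 H and Q, against 135 and 168 CPM in mock H and Q (0.55, SE 0.21, edgeR adjusted p = 0.719). PDSS1, which makes the ubiquinone side chain, had 43.5 and 34.5 CPM in H2O2 H and Q, against 25.1 and 20.7 CPM in mock H and Q (0.77, SE 0.23). In both genes the H2O2 libraries stood above the mock libraries. COQ4 went the other way, with 32.8 and 29.6 CPM in H2O2 H and Q, against 49.3 and 36.0 CPM in mock H and Q (-0.45, SE 0.23).

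Of 17 tricarboxylic acid cycle genes, 14 were above 0, with a median of 0.21, and 5 had non-overlapping groups with H2O2 higher (29.4%, against 18.1% of all genes and 21.1% of those with an mRNA model). Of 24 HIF-regulated metabolic genes, 22 were below 0, with a median of -0.48. Both H2O2 values lay above both mock values in 1 of the 24 (4.17%) and below them in 2 (8.33%), against 18.1% and 21.3% of all genes. Their H2O2 to mock ratio had a median of -1.0 within H and of 0.56 within Q, so that the direction differed between letters, and the median difference of mock Q minus mock H was -1.79. NDUFA4L2 had ratios of -0.81 within H and -0.61 within Q.

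**Figure D5:**
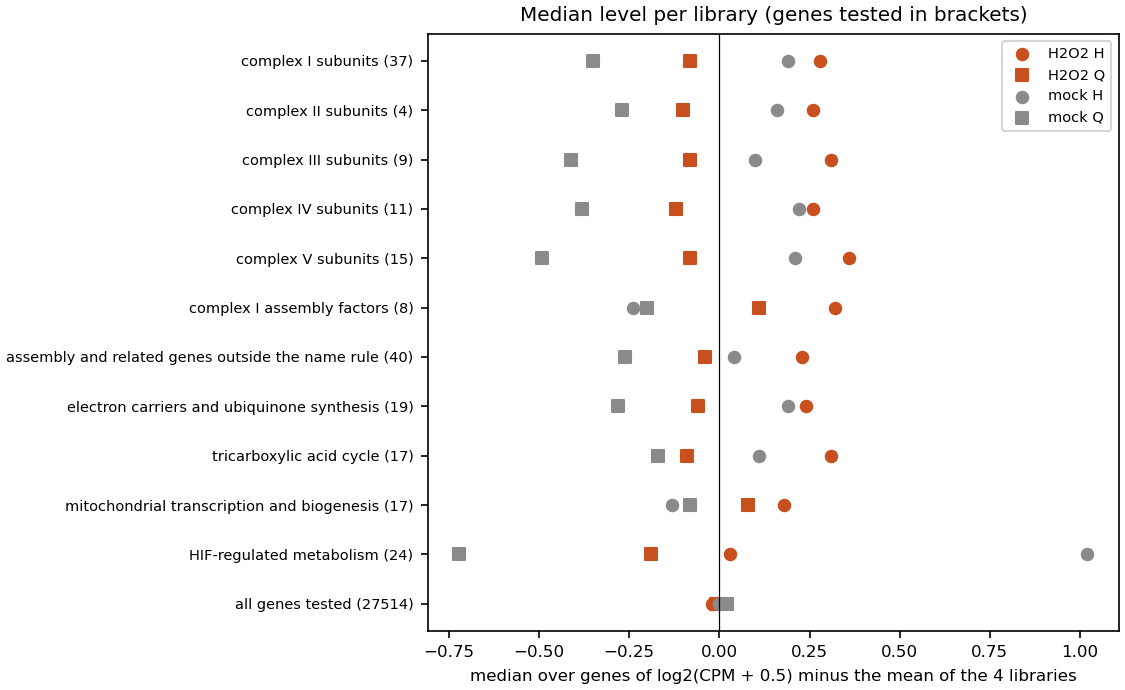
Median over genes of log2(CPM + 0.5) minus the mean of the 4 libraries (x axis) for each complex and gene list (y axis, genes tested in brackets), 1 marker per library. The subunit medians of the complexes lie at 0.26 to 0.36 in H2O2 H and at -0.27 to -0.49 in mock Q, and the HIF-regulated genes are set apart by mock H at 1.02.

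Several members carry limits from their sequence. Processed pseudogenes are annotated for 45 members, 162 in all, and reads of a member and of its near-identical copies may have been split or shared. Of the 99 members, 33 have more than 1 mRNA model. In GENCODE v29 an exon of 53 members overlaps an exon of another gene on either strand, among them NDUFAF3 (DALRD3), NDUFC1 (MGARP), NDUFS1 (EEF1B2) and COX4I1 (EMC8), and reads of such pairs could not be told apart. Fold changes compare libraries within each gene. Levels of different genes were set beside each other, without a test, for paralogues and overlapping neighbours, and as reads per kilobase when choosing subunits to name.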

How the data were processed

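RNA of 4 Huh7 libraries was analysed, 2 from cells in 300 µM H2O2 and 2 from mock-treated cells. Per the file headers, every transcript model has a read count and an FPKM in the deposited tables. The submitters' processing notes name CASAVA, Bowtie 0.12.2, TopHat 1.3.3, Cuffdiff and the builds mm8, hg19 and GRCh37, with no roles. Which program and annotation produced the counts, and whether strand was used, is not given in the sources used here. Alignment reports deposited with the tables gave mapped shares of 91.7% and 90.9% in H2O2 H and Q, against 90.5% and 87.4% in mock H and Q. With 1 model per gene the counts summed to 113082498 and 112972746 in H2O2 H and Q, against 103851326 and 108117565 in mock H and Q. These sums exceed the mapped mates, so a read could be counted more than once and the counts overstate the depth. Whether that happened within a gene or between genes is not given in the sources used here.

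For each gene name the mRNA model with the highest total count was used, or the highest of any kind where there was none. Genes kept by filterByExpr (27514, with 14553 below it) were scaled by TMM (factors 0.903 and 1.06 for H2O2 H and Q, 0.933 and 1.12 for mock H and Q) and compared by edgeR 4.0.16 in R 4.3.3 (quasi-likelihood, two-sided), with treatment as the sole term 2 residual and 3.2 prior degrees of freedom, and a common biological coefficient of variation of 0.308. Adjusted p-values are those of Benjamini and Hochberg over all genes. The SE of an edgeR fold change was derived from the test, as the absolute fold change over the square root of its F statistic. A permutation test of 2 against 2 libraries cannot give a p below 0.333. The fit was also run on simulated counts, with planted changes far larger than those of the members and no difference between letters. That run therefore cannot show whether changes of the size seen here would be found.

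Alternatives were DESeq2 1.42.0, other scalings and filters, summed models, limma 3.58.1 on log2(FPKM + 1), the letter as a block, and each library left out. The members and lists were chosen with earlier results of these data known. Named by rule were, per complex, the subunits with the 3 highest and 3 lowest fold changes, the subunit with the most reads per kilobase, the core subunits and the paralogues, with the assembly factors of largest change in each direction. One member counted in the totals is not reported here by name. The other genes named were chosen after their values were seen. Exon overlap and pseudogenes came from GENCODE v29, and promoters from RefSeq GRCh38.p14. For 21 members the current RefSeq symbol differs from the one used here.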

Additional observations from a re-analysis of the deposited data

How the results depend on the processing

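With 2 libraries per group, 2 residual degrees of freedom and an unstated source of the replicates, small differences could not be resolved, and no member passed 5% under any setting. Genes past 5% numbered 138 with DESeq2, 9 with no filter on low counts and 45 with the letter as a replicate block, and 0 to 13 when 1 library was left out, with the 13 coming without mock Q. The letter deviations correlated at 0.603 between the groups, over all genes, but 2 pairs do not show that the letters pair the libraries. When 1 library was left out, the medians ranged from -0.07 to 0.46 for complex I, -0.09 to 0.38 for II, 0.01 to 0.62 for III, -0.15 to 0.44 for IV, -0.05 to 0.63 for V and 0.39 to 0.59 for the complex I assembly factors. Under the 9 alternatives that kept all 4 libraries, 14 of 431 gene values turned direction, in 7 genes. With no scaling beyond the total these were COX6A1 (-0.05), COX6B2 (-0.03), COX7A2L (-0.02), NDUFV1 (-0.02), SDHAF1 (-0.04) and SDHC (-0.03). With mRNA genes alone they were COX6A1 (-0.04), COX7A2L (-0.01), NDUFV1 (-0.02), SDHAF1 (-0.03) and SDHC (-0.01), and with the FPKM filter COX6A1 (-0.01). NDUFC1 turned to 0.1 with limma on FPKM and to 0.04 with the replicate block. Without 1 library, 45 of 192 gene values turned, in 26 genes. The ranges over these fits were, for complex V, ATP5A1 -0.22 to 0.64, ATP5B -0.34 to 0.20, ATP5G2 -0.32 to 0.97 and ATP5O -0.34 to 0.58. For complex IV they were COX4I1 -0.73 to 0.01, COX5A -0.43 to 0.38, COX5B -0.17 to 0.44, COX6A1 -0.17 to 0.22, COX6B1 -0.15 to 0.53, COX6B2 -0.07 to 0.19, COX7A1 -0.21 to 0.41, COX7A2 -0.05 to 0.57, COX7A2L -0.26 to 0.41 and COX8A -0.13 to 0.38. For complex III they were CYC1 -0.06 to 0.79 and UQCRC1 -0.47 to 0.29. For complex II they were SDHA -0.20 to 0.12, SDHAF1 -0.24 to 0.34 and SDHC -0.18 to 0.27. For complex I they were ATP5SL -0.03 to 0.28, NDUFA12 -0.26 to 0.09, NDUFAF3 -0.01 to 0.64, NDUFAF6 -0.32 to 0.65, NDUFC1 -0.60 to 0.72, NDUFV1 -0.37 to 0.59 and NDUFV2 -0.25 to 0.01. Other genes kept their direction over wide ranges, as did ATP5C1 0.04 to 0.82, ATP5G3 0.09 to 0.73, UQCRB 0.01 to 0.71, UQCRFS1 0.06 to 0.46, SDHB 0.01 to 0.57, SDHD 0.17 to 0.54, NDUFS1 0.12 to 0.37 and NDUFAF1 0.14 to 0.49. The cause of these shifts was not tested.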
